A study of Homo sapiens with 9 samples.

Results

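The AP-1 and immediate early genes were examined in HCT116 cells with and without the catalytic cysteine of HUWE1. The members were 9 genes chosen by symbol, FOS, FOSL1, FOSL2, JUN, JUNB, JUND, EGR1, IER2 and IER3, and 8 of them had a row among the 11350 genes of the counts table. FOS was not analysed here, because no row carried its symbol. The smallest total of any gene in the table was 41 counts over the 9 libraries.

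HCT116 is an established human colorectal carcinoma cell line. HUWE1 is a large HECT-type ubiquitin ligase, which passes ubiquitin to its substrates through a cysteine in the HECT domain. Poly(A) RNA was sequenced from untreated cells of 3 lines, with 3 libraries of each. HUWE1-P was the parental line. In HUWE1-WT, the end of the endogenous HUWE1 gene was exchanged by CRISPR for a template that kept the catalytic cysteine, and HUWE1-CS carried the same exchange with serine in its place. Both edited lines therefore shared what HUWE1-P lacked: the exchanged sequence, a P2A site with a blasticidin resistance gene, growth from single cells, and selection with puromycin and blasticidin. Whether the 3 libraries of an edited line came from 1 clone or from several is not given in the sources used here. A feature of a clone and an effect of the mutation then cannot be told apart. The p-values measure only spread between these libraries, and that spread is in large part shared over all genes.

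AP-1 is a dimeric transcription factor built from basic leucine zipper (bZIP) proteins. JUN, JUNB and JUND can pair with each other or with a FOS family protein such as FOSL1 (FRA-1) or FOSL2 (FRA-2), while FOS family proteins need a JUN partner to bind DNA well. The dimers bind the TPA response element (TRE) and the closely related cyclic AMP response element (CRE). Many of the genes are immediate early genes: growth factors and stress induce them within minutes, without new protein synthesis, through MAP kinases and the factors SRF and TCF, which sit at CArG boxes. Their RNAs are short-lived, and in colorectal cancer cells FOSL1 is a well-known downstream gene of the RAS pathway.

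Windows from 250 bases before to 50 bases after the start site were found in RefSeq (GRCh38.p14) for 6 of the 8 members. FOSL1 and IER3 had no entry. Each window matched the GRCh37 genome once, and the coordinates are those of GRCh37 (hg19), the build of the counts. The following sites are shown because they are the AP-1 and SRF motifs found in the members' own promoters, with the motif in capitals and 10 bases on either side.
FOSL2, TRE, chr2:28615719-28615745, plus strand: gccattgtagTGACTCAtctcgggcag
JUN, TRE variant, chr1:59249769-59249796, minus strand: ggccttggggTGACATCAtgggctattt
JUND, CRE, chr19:18392615-18392642, minus strand: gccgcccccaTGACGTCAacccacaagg
EGR1, CArG box, chr5:137801053-137801082, plus strand: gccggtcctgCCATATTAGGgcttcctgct
EGR1, CArG box, chr5:137801075-137801104, plus strand: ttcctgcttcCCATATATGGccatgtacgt

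The first motif base lay at -67 from the start site in JUN, at -200 in JUND, at -105 and -83 in EGR1, and at base 5 of the transcript in FOSL2. Both strands were searched. The TRE (TGACTCA) was held by 4.95% of 35116 RefSeq promoters, the JUN variant (TGACATCA) by 2.61%, the CRE (TGACGTCA) by 1.85% and the CArG box by 1.29%. The EGR site (GCGTGGGCG) was in 0.795% of all promoters and in 0 of the 6 member windows. JUNB and IER2 held none of the motifs searched within these windows. A match describes the letters only, and binding was not measured in these libraries.

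The libraries held between 1610984 and 2060349 counts, so that 3 counts corresponded to 1.45 to 1.86 CPM (the usual normalised read count, scaled for library size by the trimmed mean of M-values, TMM). The common biological coefficient of variation was 4.77%. HUWE1 itself measured 561, 545 and 522 CPM in HUWE1-P, 498, 453 and 455 CPM in HUWE1-WT, and 345, 323 and 339 CPM in HUWE1-CS, a log2 fold change of -0.69 for HUWE1-CS against HUWE1-P (adjusted p = 1.06e-15, edgeR). These counts do not show which amino acid is encoded. KRT8, KRT18 and KRT19, keratins of colon epithelium, were present in every line at means of 665 to 2122 CPM. Of 16 colon epithelial markers, 11 were in the table, with summed levels of 4439 to 4580, 4459 to 4872 and 4111 to 4493 CPM in HUWE1-P, HUWE1-WT and HUWE1-CS. From HUWE1-P to HUWE1-CS the mean went from 2055 to 1643 CPM for KRT8, from 817 to 665 CPM for KRT18 and from 870 to 964 CPM for KRT19. The sum does not describe the whole list: the median log2 fold change of the 11 markers in HUWE1-CS was 0.28 against HUWE1-P and 0.40 against HUWE1-WT. Of 16 markers of fibroblasts, blood and endothelium only COL1A1 and CD68 were in the table, and their sum was 31.7 to 36.5, 30.1 to 40.1 and 15.1 to 23.7 CPM. The part of these markers in the results below was not tested. Less RNA per cell and fewer cells of one kind cannot be told apart in such bulk samples.

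HUWE1-CS was first compared with HUWE1-P, which asks what differs between cells with the mutated ligase and the unedited cells. A gene was called when the false discovery rate (FDR) over all 11350 genes and the p-value of edgeR's quasi-likelihood test were both at most 0.01. JUNB and IER3 rose, by 0.59 and 0.27 on the log2 scale, and no member passed the test in the lower direction. Thus 2 of 8 members were called, beside 17% of all genes (8.46% higher and 8.58% lower). The median log2 fold change was 0.02 over the 8 members and -0.01 over all genes, with 4 members above 0 and 4 below. At an FDR of 0.05 the calls were 5 of 8, beside 26.4% of all genes, adding IER2 to those higher (12.8% of all genes) and FOSL2 and EGR1 as lower (13.6%). These shares rest on 8 genes and are given as a description.

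Compared with HUWE1-WT, the edited control, edgeR called 0 of 8 members in HUWE1-CS, beside 15.5% of all genes (7.42% higher and 8.08% lower). DESeq2 and limma-voom also called 0. An unadjusted p below 0.05 was reached by 5 members in edgeR (JUN, JUNB, FOSL2, EGR1 and IER3), 2 in DESeq2 and 5 in limma-voom, beside 35% of all genes in edgeR. At an FDR of 0.05 the calls were JUN and EGR1, both lower, beside 24.4% of all genes (12.6% lower). The median over the members was -0.01, and that over all genes was 0.00 (-0.000593).

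**Figure D1:**
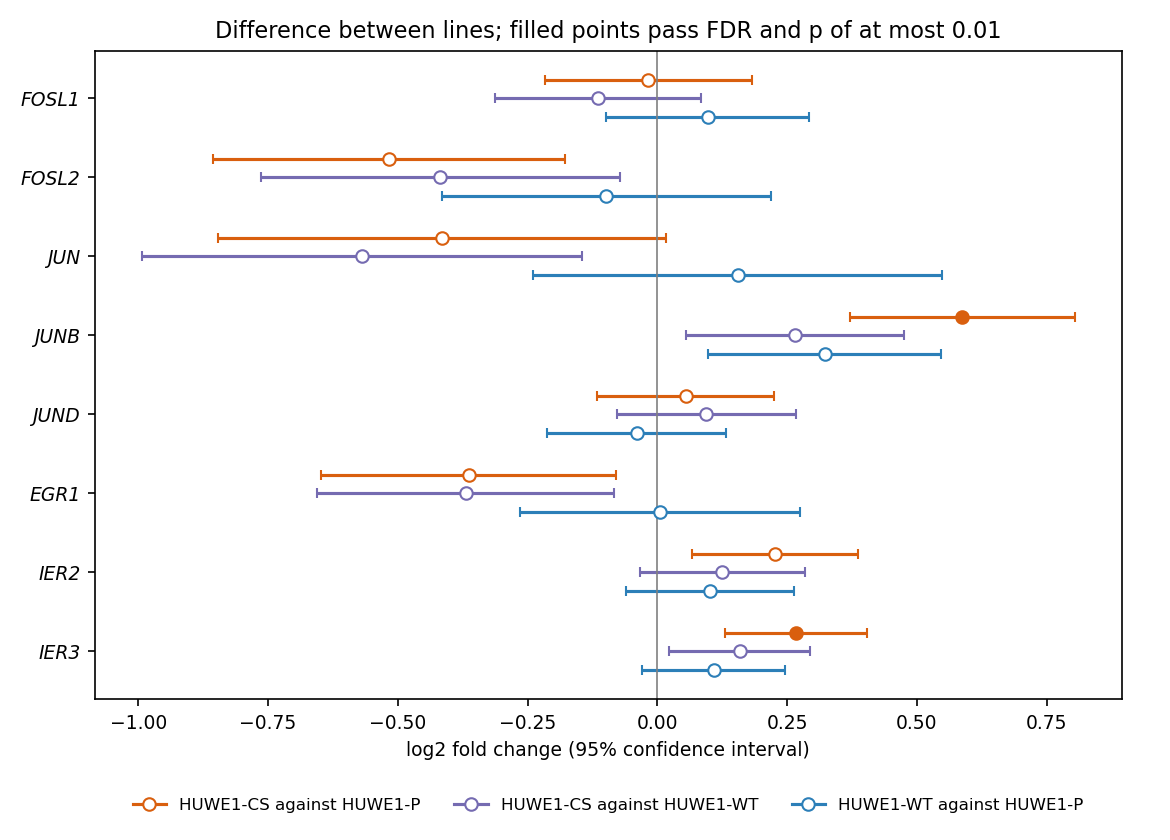
Log2 fold changes of the 8 members with 95% confidence intervals from edgeR, for HUWE1-CS against HUWE1-P, HUWE1-CS against HUWE1-WT and HUWE1-WT against HUWE1-P; filled points pass an FDR and p of at most 0.01. JUNB (0.59) and IER3 (0.27) in HUWE1-CS against HUWE1-P are the only filled points.

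HUWE1-WT was compared with HUWE1-P to see how much the editing and selection alone moved these genes. Again 0 of 8 members were called by edgeR, DESeq2 and limma-voom, beside 0.0617% of all genes (7 genes) in edgeR. JUNB alone had an unadjusted p below 0.05 with each of the 3 tools, beside 5.54% of all genes in edgeR. The log2 fold changes of the other 7 members ran from -0.10 (FOSL2) to 0.15 (JUN), with adjusted p from 0.914 to 0.998. All 3 comparisons share libraries, so their values are set side by side and are not independent of one another.

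JUNB, a JUN family protein that activates fewer targets than JUN and can restrain it, carried the largest rise among the members. It measured 67.0, 89.2 and 67.5 CPM in HUWE1-P, 86.3, 107 and 84.9 CPM in HUWE1-WT, and 99.1, 121 and 115 CPM in HUWE1-CS. Every HUWE1-CS library lay above every HUWE1-P library, whereas the lowest HUWE1-CS library lay below the highest HUWE1-WT library. The means were 74.6 ± 12.7, 92.9 ± 12.6 and 112 ± 11.5 CPM (SD, n = 3).

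The log2 fold change of JUNB was 0.59 (SE 0.11, adjusted p = 1.05e-05) in HUWE1-CS against HUWE1-P, or 1.502-fold with a 95% interval of 1.29 to 1.75. Against HUWE1-WT it was 0.27 (SE 0.11, adjusted p = 0.0542), and HUWE1-WT exceeded HUWE1-P by 0.32 (SE 0.11, adjusted p = 0.613). JUNB was thus intermediate in HUWE1-WT, and only the difference between the outer lines passed the test. With DESeq2 that difference was 0.59 (SE 0.14, adjusted p = 0.00068). Without HUWE1-WT replicate 2, the highest of its line, the difference from HUWE1-WT passed as well, at 0.39 (adjusted p = 0.00894). It was smaller without HUWE1-WT replicate 3 (0.20, adjusted p = 0.233) or HUWE1-CS replicate 2 (0.21, adjusted p = 0.217), and 0.16 (adjusted p = 0.247) when a trend of each library with transcript length was removed.

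JUNB lies at chr19:12902300-12904129 on the plus strand of GRCh37, and an exon of HOOK2 (named here for its position, after its values were seen), a gene for a microtubule-linked adaptor protein, overlaps it on the other strand. The study named a library kit of the kind that does not mark strand, and reads from the shared bases cannot be told apart. HOOK2 measured 53.4, 57.8 and 48.2 CPM in HUWE1-P, 46.9, 44.7 and 44.2 CPM in HUWE1-WT and 55.2, 77.1 and 70.8 CPM in HUWE1-CS. HOOK2 was higher in HUWE1-CS than in HUWE1-WT (log2 fold change 0.58, adjusted p = 0.000359), and 0.36 above HUWE1-P without passing the test (adjusted p = 0.0270). Its part in the JUNB counts was not tested.

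JUN, the founding AP-1 subunit and the main target of the JNK kinases, was the lowest of its family per kb of exon. It measured 21.7, 25.3 and 17.8 CPM in HUWE1-P, 26.1, 26.7 and 18.6 CPM in HUWE1-WT, and 16.0, 16.4 and 15.7 CPM in HUWE1-CS. All 3 HUWE1-CS libraries lay below all 6 control libraries, although the gap to the lowest control was small. The means were 21.6 ± 3.72, 23.8 ± 4.51 and 16.0 ± 0.386 CPM (SD, n = 3).

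The difference did not pass the test, with a log2 fold change of -0.42 against HUWE1-P (SE 0.22, adjusted p = 0.157, 95% interval -0.85 to 0.02) and -0.57 against HUWE1-WT (SE 0.21, adjusted p = 0.0398, 95% interval -0.99 to -0.15). JUN rested on 27 to 49 counts a library, and counting error alone gave a coefficient of variation of 15.4% to 19.0%. The 2.40% spread within HUWE1-CS was smaller than the 19.0% that counting alone would give there. JUN held the fewest counts of the JUN family. When 1 library at a time was left out, its adjusted p against HUWE1-WT ran from 0.0168 to 0.173.

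JUND, a JUN protein that is made steadily in most cells and can slow growth, did not differ beyond its spread. It measured 152, 173 and 174 CPM in HUWE1-P, 156, 175 and 156 CPM in HUWE1-WT, and 176, 201 and 143 CPM in HUWE1-CS. The HUWE1-CS libraries held both the highest and the lowest of the 9 values. Its log2 fold change was 0.05 against HUWE1-P (adjusted p = 0.699, 95% interval -0.12 to 0.22) and 0.09 against HUWE1-WT (adjusted p = 0.471, 95% interval -0.08 to 0.27).

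**Figure D2:**
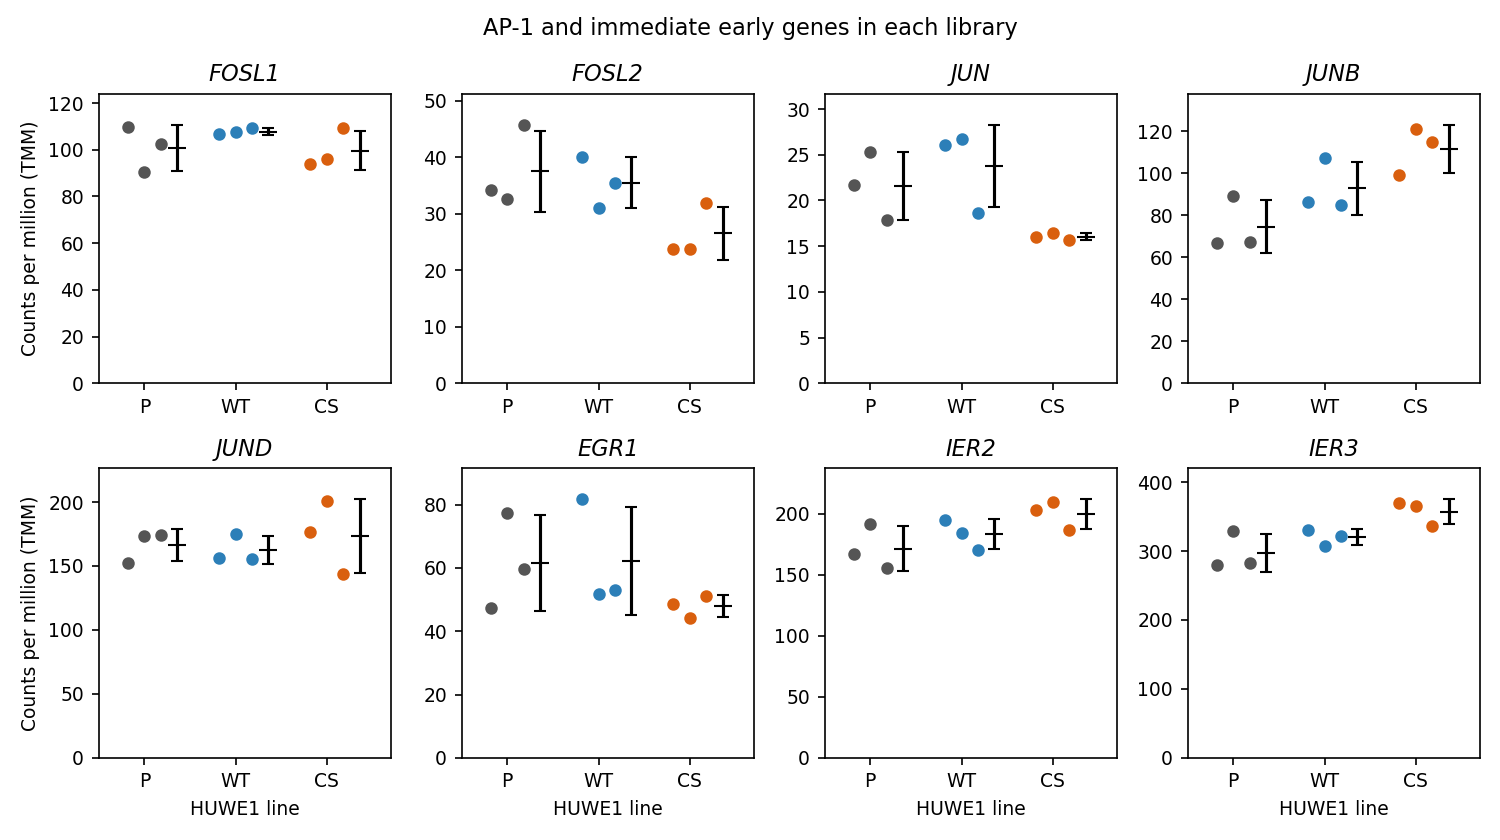
CPM (TMM) of each of the 8 members in the 3 libraries of each line (P, WT and CS stand for HUWE1-P, HUWE1-WT and HUWE1-CS), with the mean and SD in black; each panel has its own axis from 0. In HUWE1-CS, IER3 sits above and JUN, at 15.7 to 16.4 CPM, below all 6 control libraries. JUNB has its highest mean in HUWE1-CS but overlaps HUWE1-WT, and each of the remaining members overlaps 1 or both control lines.

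The balance of the JUN family was also set out within each library, where the scaling of libraries does not enter. The JUNB to JUN ratio of counts was 3.09, 3.53 and 3.78 in HUWE1-P, 3.31, 4.02 and 4.56 in HUWE1-WT, and 6.19, 7.38 and 7.33 in HUWE1-CS. The HUWE1-CS ratios lay above all 6 control ratios, and the control lines overlapped. This ratio was picked after the values of both genes were seen and was not tested. JUN, its denominator, held only 27 to 49 counts a library. No share over other pairs of genes was set beside it. A trend with transcript length can still enter, since JUNB belongs to a shorter class of genes than JUN.

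Per kb of exon, JUND made up 65.0% ± 3.33, JUNB 30.5% ± 2.82 and JUN 4.48% ± 0.662 of the JUN family in HUWE1-P (SD, n = 3). In HUWE1-WT the shares were 59.6% ± 1.61, 35.8% ± 1.44 and 4.63% ± 0.718. In HUWE1-CS they were 57.7% ± 4.49, 39.5% ± 4.36 and 2.87% ± 0.242. JUND remained the largest share in each line, and the mean share of JUNB was highest in HUWE1-CS. By library, the JUNB shares of HUWE1-CS (36.1%, 37.9% and 44.4%) overlapped those of HUWE1-WT (34.8%, 37.4% and 35.1%).

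**Figure D3:**
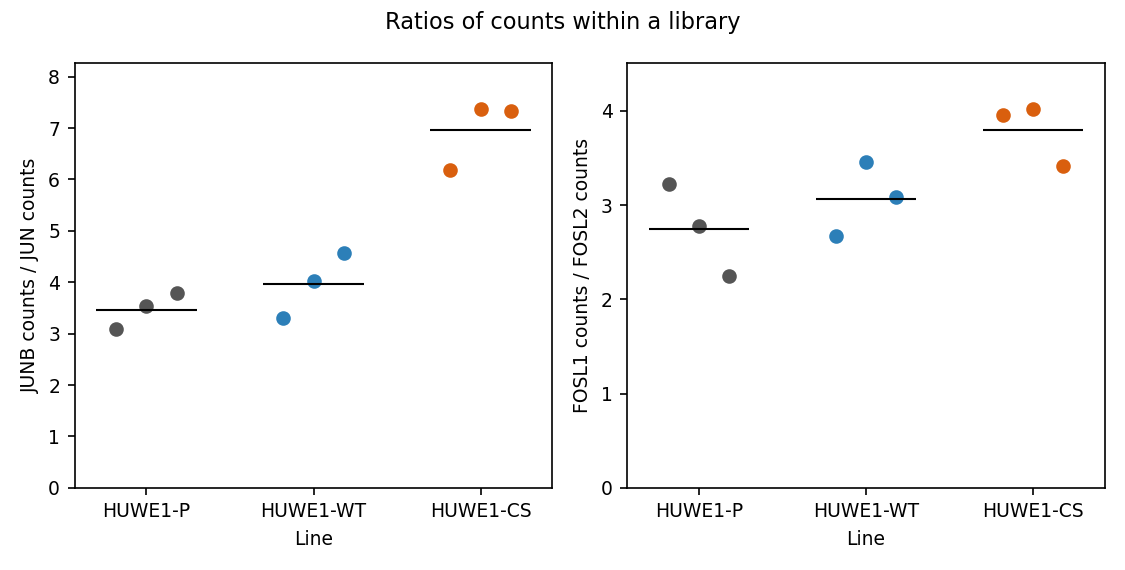
Ratio of JUNB to JUN counts (left) and of FOSL1 to FOSL2 counts (right) in each library of the 3 lines, with a line at the mean of the 3 libraries. The JUNB to JUN ratio is 6.19 to 7.38 in HUWE1-CS and 3.09 to 4.56 in the control lines, with 27 to 49 JUN counts a library. The FOSL1 to FOSL2 ratio of 3.42 to 4.02 in HUWE1-CS overlaps the 2.24 to 3.46 of the controls.

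Of the FOS family, FOSL1, which is abundant in invasive and RAS-driven carcinoma cells, did not differ beyond the spread. It measured 110, 90.4 and 103 CPM in HUWE1-P, 107, 107 and 109 CPM in HUWE1-WT, and 93.8, 95.8 and 109 CPM in HUWE1-CS. The 3 lines overlapped. The log2 fold change was -0.02 against HUWE1-P (adjusted p = 0.924, 95% interval -0.22 to 0.18) and -0.11 against HUWE1-WT (adjusted p = 0.447, 95% interval -0.31 to 0.08).

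FOSL2, the other FOS-related subunit without a strong activation domain, did not pass the test in either comparison. It measured 34.1, 32.6 and 45.8 CPM in HUWE1-P, 39.98, 31.1 and 35.5 CPM in HUWE1-WT, and 23.7, 23.8 and 31.9 CPM in HUWE1-CS. All HUWE1-CS libraries were below those of HUWE1-P, while the highest of them, replicate 3, fell above the lowest HUWE1-WT library. The means were 37.5 ± 7.22, 35.5 ± 4.45 and 26.5 ± 4.71 CPM (SD, n = 3).

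The log2 fold change of FOSL2 was -0.52 against HUWE1-P (SE 0.17, adjusted p = 0.0163, 95% interval -0.86 to -0.18) and -0.42 against HUWE1-WT (SE 0.17, adjusted p = 0.0678, 95% interval -0.76 to -0.07). The call against HUWE1-P turned on single libraries. It was reached without HUWE1-CS replicate 3 (-0.66, adjusted p = 0.00742) and without HUWE1-P replicate 2 (-0.61, adjusted p = 0.00863), and without HUWE1-P replicate 3, the highest of the 9, the value was -0.33 (adjusted p = 0.248). FOSL1 made up 91.1% ± 1.49 of the FOSL1 and FOSL2 level per kb in HUWE1-P, 92.0% ± 0.959 in HUWE1-WT and 93.5% ± 0.555 in HUWE1-CS (SD, n = 3).

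EGR1 is a zinc finger factor whose promoter holds CArG boxes, 2 of which are printed above. It measured 47.2, 77.5 and 59.7 CPM in HUWE1-P, 81.7, 51.8 and 52.9 CPM in HUWE1-WT, and 48.7, 44.2 and 51.1 CPM in HUWE1-CS. The control lines each had 1 high library, and the HUWE1-CS libraries lay below all of HUWE1-WT but overlapped HUWE1-P. EGR1 was the most scattered member in the controls, with a coefficient of variation of 24.8% in HUWE1-P and 27.3% in HUWE1-WT where counting gave 9.42% and 9.58%, against 7.24% in HUWE1-CS where counting gave 11.0%.

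The log2 fold change of EGR1 was -0.36 against HUWE1-P (SE 0.14, adjusted p = 0.0489) and -0.37 against HUWE1-WT (SE 0.14, adjusted p = 0.0496), and neither passed. DESeq2 gave -0.35 with an adjusted p of 0.411 against HUWE1-P and -0.37 with an adjusted p of 0.395 against HUWE1-WT. Its standard error was 0.26 in both comparisons. The difference was smaller without the highest library of either control. Without HUWE1-P replicate 2 it was -0.17 against HUWE1-P (adjusted p = 0.472), and without HUWE1-WT replicate 1 it was -0.13 against HUWE1-WT (adjusted p = 0.633), so that neither comparison then reached an FDR of 0.05.

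IER2, a small nuclear protein induced by growth factors, measured 167, 191 and 155 CPM in HUWE1-P, 195, 184 and 170 CPM in HUWE1-WT, and 203, 210 and 186 CPM in HUWE1-CS. The HUWE1-CS libraries overlapped both controls. Its log2 fold change of 0.23 against HUWE1-P (SE 0.08, adjusted p = 0.0278, 95% interval 0.07 to 0.39) did not pass the test. It passed without HUWE1-P replicate 2, the highest of that line (0.31, adjusted p = 0.00556), and stood at 0.15 without HUWE1-P replicate 3, the lowest (adjusted p = 0.246). Against HUWE1-WT the value was 0.13 (adjusted p = 0.270, 95% interval -0.03 to 0.28). On GRCh37, 2 unnamed genes on the other strand overlap IER2 exons, and neither is in the table.

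IER3, which modulates ERK signalling and cell survival, was the most abundant member per kb of exon. It measured 279, 329 and 282 CPM in HUWE1-P, 330, 308 and 322 CPM in HUWE1-WT, and 370, 365 and 336 CPM in HUWE1-CS. All 3 HUWE1-CS libraries exceeded all 6 control libraries. The means were 297 ± 27.8, 320 ± 11.5 and 357 ± 18.2 CPM (SD, n = 3).

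IER3 rose by 0.27 on the log2 scale against HUWE1-P (SE 0.07, adjusted p = 0.00172), or 1.20-fold with a 95% interval of 1.09 to 1.32, and stood 0.16 above HUWE1-WT without passing (SE 0.07, adjusted p = 0.0806). The call was lost without HUWE1-P replicate 1 (0.23, adjusted p = 0.0282), without HUWE1-P replicate 3 (0.23, adjusted p = 0.0286) and without HUWE1-CS replicate 1 (0.24, adjusted p = 0.0175). It was also lost when a trend of each library with transcript length was removed (0.11, adjusted p = 0.251). With that trend removed, IER3 stood only 0.03 above HUWE1-WT (adjusted p = 0.801). HCG20 and IER3-AS1 overlap an IER3 exon on the other strand of chr6:30710976-30712325, and neither is in the table.

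Most members are short transcripts. Over all genes, the median log2 fold change in HUWE1-CS against HUWE1-P was 0.09 in the shortest 25% of genes and -0.08 in the longest 25%. FOSL1, JUNB, JUND, EGR1, IER2 and IER3 belonged to the shortest class, and JUN and FOSL2 to the middle classes. With the trend removed, JUNB was still called at 0.45 (adjusted p = 0.000474), EGR1 stood at -0.41 (adjusted p = 0.0236) and JUND changed sign, from 0.05 to -0.08 (adjusted p = 0.541).

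By single libraries, HUWE1-CS lay beyond HUWE1-P for 4 of 8 members (JUNB and IER3 higher, JUN and FOSL2 lower), beside 37.9% of all genes (18.2% higher and 19.7% lower), and beyond HUWE1-WT for 3 of 8 (IER3 higher, JUN and EGR1 lower), beside 36.1% (17.6% higher and 18.6% lower). Beyond all 6 control libraries were 2 of 8, JUN lower and IER3 higher, beside 26.3% of all genes (12.9% higher and 13.4% lower). HUWE1-WT lay beyond HUWE1-P for 0 of 8, beside 10.7%. When HUWE1-CS was set against the mean of both control lines, a contrast chosen after seeing the data, JUNB (0.43, adjusted p = 0.000125) and IER3 (0.21, adjusted p = 0.00316) were the 2 of 8 members called, beside 21.4% of all genes (10.7% higher and 10.7% lower).

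Levels of different genes were compared per kb of exon. In HUWE1-P the order was IER3 (220 ± 20.6 CPM per kb), JUND (86.4 ± 6.54), IER2 (55.6 ± 6.004), FOSL1 (53.5 ± 5.22), JUNB (40.8 ± 6.94), EGR1 (19.6 ± 4.85), JUN (5.96 ± 1.03) and FOSL2 (5.23 ± 1.01), each with its SD over 3 libraries. The libraries of IER2 and FOSL1 overlapped, as did those of FOSL1 and JUNB and those of JUN and FOSL2. In HUWE1-CS, JUNB reached 61.1 ± 6.26 CPM per kb, between IER2 (64.9 ± 3.92) and FOSL1 (52.8 ± 4.43), and its libraries overlapped those of both. JUN and FOSL2, at 4.43 ± 0.106 and 3.70 ± 0.657, were the lowest, and their libraries overlapped. HUWE1-WT had the same order as HUWE1-P, from IER3 at 237 ± 8.52 to FOSL2 at 4.96 ± 0.621 CPM per kb.

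**Figure D4:**
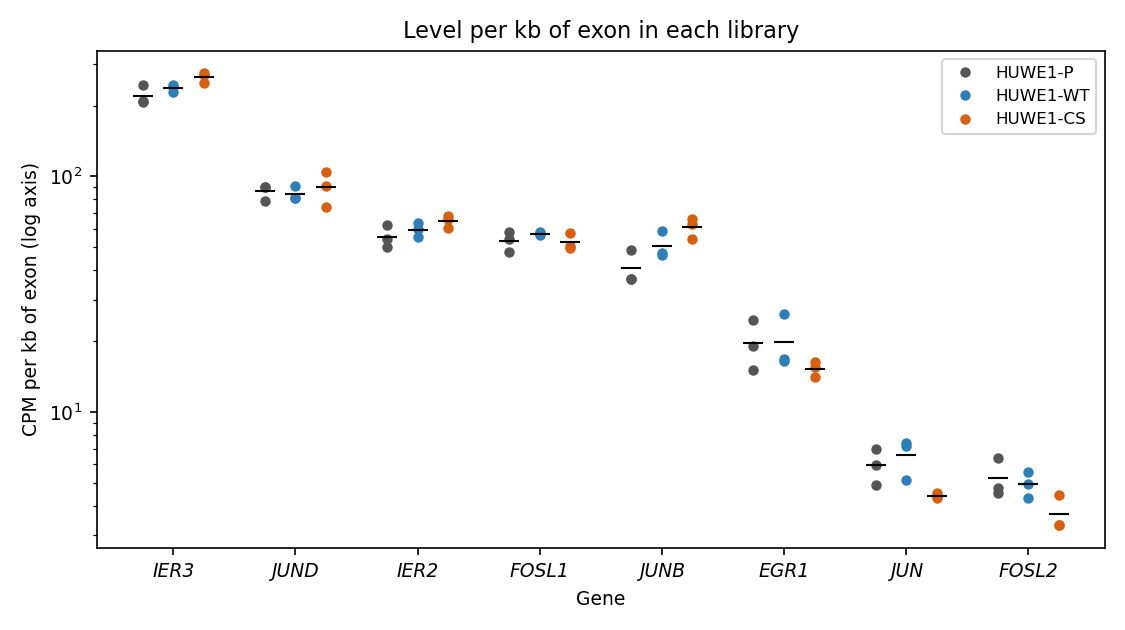
CPM per kb of exon (log axis) of the 8 members in each library of the 3 lines, in the order of the HUWE1-P means, with a dash at each mean. IER3 is highest at 220 to 264 CPM per kb on average and JUN and FOSL2 are lowest at 3.70 to 6.57.

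Among the members, log2 CPM over the 9 libraries rose and fell together most closely for IER2 and IER3 (r = 0.899), JUNB and IER2 (r = 0.792) and JUNB and IER3 (r = 0.784), and went most nearly opposite ways for FOSL2 and IER2 (r = -0.777). The points are libraries of 3 lines, so that these values hold both the lines and the shared scaling, and they are given as a description. The trend with transcript length was not removed from them. JUNB, IER2 and IER3 belong to the shortest class of genes and FOSL2 to a longer one. The part of length in these correlations was not tested. The 5 genes most like JUNB over the 9 libraries were HDDC3 (r = 0.963), ATF5 (r = 0.959), HAGH (r = 0.935), SERTAD1 (r = 0.934) and TMSB10 (r = 0.934), and 36 genes in all had an r above 0.9. ATF5 is itself a bZIP factor, and TMSB10 binds monomeric actin.

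The surrounding pathway was described from lists of genes that are no members. All lists here and below were chosen with earlier results of these data known. Their shares called are therefore a description and no independent support. The share over all genes set beside them was not matched for the level of the genes. Of 10 other AP-1 and related bZIP factors in the table (JDP2, ATF, CREB and small MAF genes among them), edgeR, DESeq2 and limma-voom each called 0 in HUWE1-CS against either control, beside the 17% and 15.5% of all genes given above. An unadjusted p below 0.05 was reached by 1, 0 and 1 of them against HUWE1-P and by 3, 0 and 3 against HUWE1-WT, beside 36.1% and 35% of all genes in edgeR. The median log2 fold change was -0.17 against HUWE1-P (-0.096 without HUWE1-P replicate 3) and -0.03 against HUWE1-WT. CREB1, which binds the CRE, had the smallest p against HUWE1-P, at -0.32 (adjusted p = 0.0835), and stood at -0.03 against HUWE1-WT (adjusted p = 0.903). ATF3, a stress-induced factor, stood at 0.22 against HUWE1-P (adjusted p = 0.462) and 0.52 against HUWE1-WT (adjusted p = 0.0698).

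Of 31 other immediate early genes in the table, 10 rose and 7 fell in HUWE1-CS against HUWE1-P (54.8% called), and 8 rose and 11 fell against HUWE1-WT (61.3%). Of all genes, 17% were called against HUWE1-P (8.46% higher and 8.58% lower) and 15.5% against HUWE1-WT (7.42% higher and 8.08% lower). Whether the shares of this list differ from that of the 8 members was not tested. The values of single genes that follow are for HUWE1-CS against HUWE1-P. ZFP36L1, an RNA-binding protein that speeds the decay of AU-rich mRNAs, went from 155 ± 6.82 to 57.6 ± 5.29 CPM (-1.42, adjusted p = 8.11e-22). CCN1, a secreted matricellular protein, went from 26.8 ± 5.49 to 7.16 ± 0.373 CPM (-1.89, adjusted p = 1.15e-09). IER5L, a relative of IER2, rose by 0.80 (adjusted p = 2.34e-15) and PLK2, a polo-like kinase, by 0.78 (adjusted p = 1.42e-09). The list median was -0.16 against HUWE1-P, with calls in both directions, and it was -0.075 without HUWE1-P replicate 2 and -0.067 without HUWE1-CS replicate 3.

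**Figure D5:**
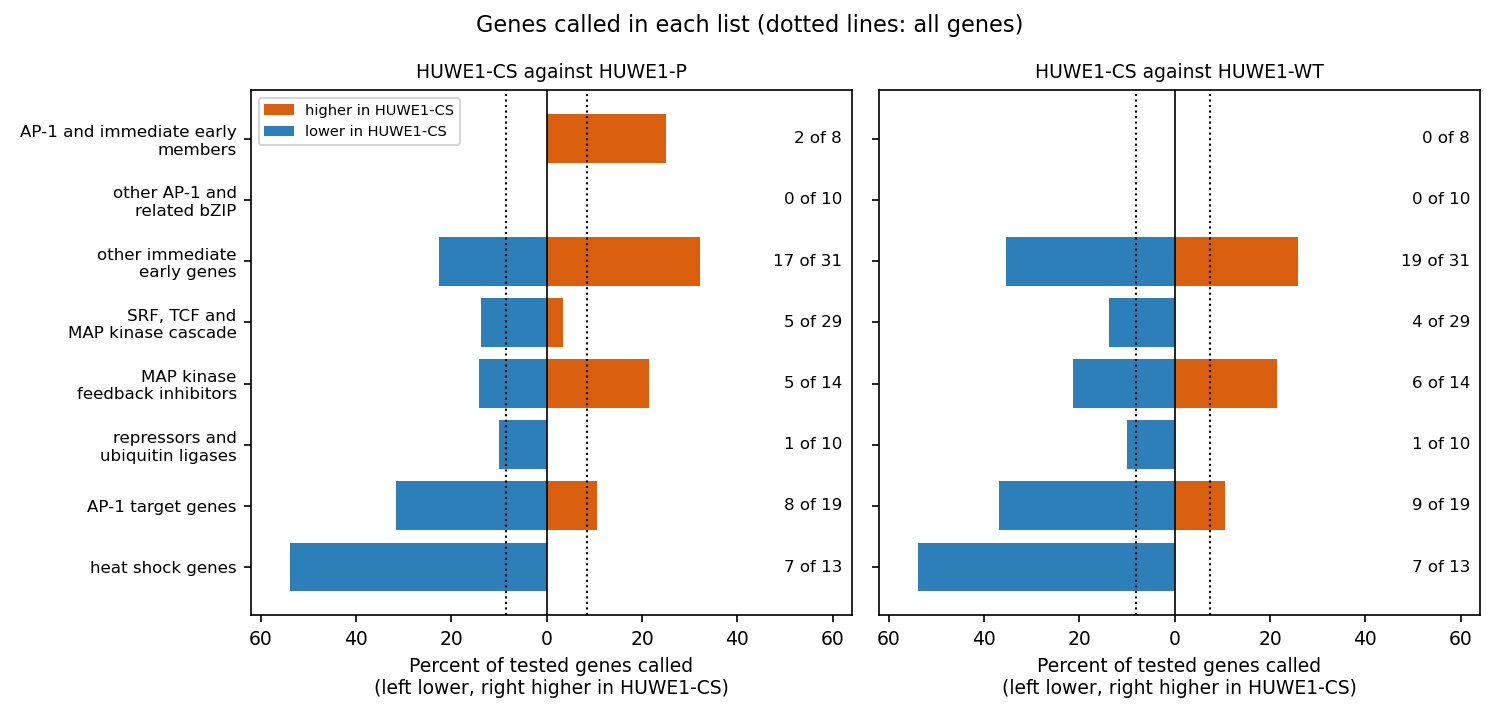
Percent of the tested genes of each list called higher (right, orange) and lower (left, blue) in HUWE1-CS against HUWE1-P and against HUWE1-WT, with the number called of the number tested; dotted lines mark the percent of all genes called in each direction. The 8 members have 2 and 0 calls, the other immediate early genes 17 and 19 of 31.

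Upstream of the members, the SRF, TCF and MAP kinase list had 5 of 29 genes called in HUWE1-CS against HUWE1-P, 1 higher (MAP3K7, named after its value was seen, at 0.42 with an adjusted p of 0.00499) and 4 lower. Those lower included MAP2K3, a kinase of the p38 branch (-0.61, adjusted p = 1.98e-07), the RAS gene NRAS (-0.52, adjusted p = 4.21e-06) and MAP2K4, a kinase of the JNK branch (-0.44, adjusted p = 0.00110). This 17.2% was near the 17% of all genes. Against HUWE1-WT 4 of 29 were called, all lower (13.8%, beside 15.5% of all genes called in either direction and 8.08% lower).

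The feedback inhibitors of the MAP kinases moved in both directions, with 3 higher and 2 lower of 14 against HUWE1-P and 3 higher and 3 lower against HUWE1-WT. That is 35.7% and 42.9% of the list, beside 17% and 15.5% of all genes. Single genes are given below for HUWE1-CS against HUWE1-P. ERRFI1, an inhibitor of the EGF receptor, went from 601 ± 19.0 to 160 ± 3.66 CPM (-1.91, adjusted p = 9.57e-43). DUSP4 and DUSP6, phosphatases of nuclear and cytoplasmic ERK, rose by 1.20 (adjusted p = 3.18e-17) and 0.77 (adjusted p = 5.38e-10), while DUSP5, a nuclear ERK phosphatase, fell by 0.79 (adjusted p = 5.68e-11). Among 10 repressors and ubiquitin ligase factors of JUN, FOS and EGR1, FBXW7, a substrate adaptor that can bind JUN, was the 1 called (-0.81, adjusted p = 0.00231). This was 10% of the list against HUWE1-P, beside 17% of all genes. DESeq2 called 0 of these 10, with 3 at an unadjusted p below 0.05.

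Of 19 AP-1 target genes in the table, 2 rose and 6 fell in HUWE1-CS against HUWE1-P, and 2 rose and 7 fell against HUWE1-WT. The shares called were 42.1% and 47.4%, beside 17% and 15.5% of all genes. The calls against HUWE1-P went both ways. S100A4, a calcium-binding protein linked to cell motility, rose by 0.58 (adjusted p = 1.23e-10). EZR, which ties membrane to actin (-0.40, adjusted p = 1.37e-09), CCND1, or cyclin D1 (-0.43, adjusted p = 2.70e-09), and HMGA2, a chromatin protein (-0.56, adjusted p = 4.44e-08), fell. The list median was -0.08 against HUWE1-P. It was -0.028 without HUWE1-P replicate 1, -0.045 without HUWE1-CS replicate 2 and -0.0066 with only genes of at least 10 counts in every library. These genes answer to many factors besides AP-1, and KRT18 stands both in this list and among the colon epithelial markers. Of those 11 markers, 4 rose and 2 fell against each control (54.5%, beside 17% and 15.5% of all genes).

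Heat shock genes, which encode chaperones and answer to protein damage through heat shock factors, were listed as a gauge of stress in the cultures. Of 13, 7 fell and 0 rose in HUWE1-CS against each control (53.8%), although the 7 were not all the same genes. Of all genes, 17% were called against HUWE1-P (8.58% lower) and 15.5% against HUWE1-WT (8.08% lower). Among those that fell against HUWE1-P were HSPH1 (-0.997, adjusted p = 3.23e-21), BAG3 (-0.59, adjusted p = 1.65e-07) and DNAJB1 (-0.46, adjusted p = 2.97e-07). HSPA1A fell by 0.38 against HUWE1-P (adjusted p = 1.42e-06). It shares nearly all of its sequence with HSPA1B, and the split of reads between them is uncertain. Their summed level was 17081 to 18120, 17190 to 18127 and 15649 to 16071 CPM in HUWE1-P, HUWE1-WT and HUWE1-CS. The part of this difference in the member results was not tested.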

How the data were processed

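RNA of 9 HCT116 samples (3 lines, 3 libraries each) was poly(A)-selected and sequenced single-end. The authors deposited raw counts per gene. Per the submitters' processing notes, bcl2fastq 2.20, STAR 2.5.4, edgeR 3.26.8 and hg19 were used; the counting tool, its annotation and strand setting, and the filter on low counts are not given in the sources used here. Genes without a symbol (147) held 0.505% of counts and stayed in the fit. The other deposited tables hold the authors' own comparisons (log2 fold changes, mean log2 CPM, F, p-values and FDR) and were not used.

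Counts were tested with edgeR 4.0.16 in R 4.3.3 (TMM, quasi-likelihood F-test with the legacy estimator, all 9 libraries, line as the only term, Benjamini-Hochberg over 11350 genes). A gene was called at FDR and p of at most 0.01. This test draws the spread of each gene towards a trend over all genes, with a prior weight of 89.5 degrees of freedom. A member's p-value thus rests only in part on its own libraries. Standard errors were the log2 fold change divided by the square root of F. The scripts were tested on simulated data. Lengths are exon unions of the GENCODE annotation on GRCh37, found for 95.4% of genes. Pairs of replicates within a line differed by more than sampling noise (chi-square per degree of freedom 1.16 to 1.65), so that none was counted as a duplicate. Intervals and the 3-count floor cover counting error or library spread only. DESeq2 1.42.0 and limma-voom (limma 3.58.1), other scalings, filters and thresholds, a replicate block, removal of the length trend and leaving out each library were alternatives.

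The members and lists were chosen with earlier results of these data known. Named genes were all members; in each list, the 4 genes with the smallest p in HUWE1-CS against HUWE1-P (for marker lists, the 3 most abundant); the 5 genes most correlated with the member of smallest p; and HUWE1. A gene that the rule names is not reported here. Genes outside the rule are marked as such.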

Additional observations from a re-analysis of the deposited data

How the results depend on the processing

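JUNB was called in HUWE1-CS against HUWE1-P in each alternative fit of these lines (0.45 to 0.73), and 2 members were called with DESeq2, limma-voom, each other scaling, the filter and the replicate block. The count was 5 at an FDR of 0.05 and 1 with a minimum absolute change of 0.5, with the length trend removed, and with that and the block; leaving out 1 library gave 1 to 4. Against HUWE1-WT it was 2 at an FDR of 0.05 and 0 to 1 when leaving out 1 library. Whether the replicate numbers pair the samples is not given in the sources used here. Same-numbered libraries of different lines correlated at -0.0195 to 0.0579 in their deviations (0 of 9 above 0.1), and the 18 other pairs at -0.0653 to 0.0333. These correlations cannot decide it, since a weak shared effect would leave values this small. The block gave 2021 called genes in place of 1934 against HUWE1-P (2 members), 1835 in place of 1759 against HUWE1-WT (0 members) and 7 in HUWE1-WT against HUWE1-P (0 members).

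Genes called in HUWE1-CS against HUWE1-P numbered 1088 with DESeq2, 2999 at an FDR of 0.05 and 1151 with a minimum change of 0.5, and 998, 2774 and 1064 against HUWE1-WT. In HUWE1-WT against HUWE1-P the 7 calls became 0 with DESeq2 (180 genes at an unadjusted p below 0.05), 4 with at least 10 counts in every library, 13 at an FDR of 0.05, 4 with a minimum change of 0.5 and 1 to 19 when leaving out 1 library. Of the lists, the SRF, TCF and MAP kinase genes had 2 calls with DESeq2 and 3 to 5 when leaving out 1 library; the repressors and ligases 0 with DESeq2, 2 with total counts and 0 to 1 when leaving out 1 library; the heat shock genes 11 with the length trend removed, with or without the block. The JUN share of its family in HUWE1-CS was 3.18% with the longest transcript as length. The cause of these changes was not tested.

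Signs turned for members near 0. Leaving out 1 library, FOSL1 against HUWE1-P ran from -0.089 to 0.041 (above 0 without HUWE1-P replicate 1, and at 0.023 and 0.018 without HUWE1-CS replicates 1 and 2). JUND against HUWE1-P was -0.076 with the length trend removed, -0.081 with the block as well, and -0.059 to 0.18 without 1 library (below 0 without HUWE1-P replicate 1, at -0.0029, or HUWE1-CS replicate 2). Against HUWE1-WT it was -0.00074, -0.0015 and -0.019 to 0.22 (below 0 without HUWE1-CS replicate 2). In HUWE1-WT against HUWE1-P, FOSL2 ran from -0.19 to 0.089 without 1 library (above 0 without HUWE1-P replicate 3). EGR1, at 0.0054 there, was -0.00095 with limma-voom, -0.0012 with the replicate block, -0.013 with the length trend removed, -0.020 with both, and -0.24 to 0.20 without 1 library (-0.14, -0.022 and -0.24 without HUWE1-P replicates 1 and 3 and HUWE1-WT replicate 1). JUN and FOSL2 rested on 27 to 95 counts a library, and counting error limits what their values can show.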
